A study of Homo sapiens with 6 samples.

Results

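The matrix proteases and their inhibitors were examined in A172 cells, an established human glioblastoma line, that overexpressed the RNA-binding protein RBFOX1 or, as control, GFP. The genes were taken by symbol: protein-coding genes named MMP, ADAM or ADAMTS followed by digits, the 4 tissue inhibitors of metalloproteinases TIMP1 to TIMP4, and RECK. Of 66 such genes, 49 had 10 or more counts summed over the libraries and were tested, among 20536 genes tested of the 58051 in the count files. The other 17 had at most 9 counts in all, and 5 of them had none (MMP8, MMP26, MMP27, ADAM30 and ADAMTS8).

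Both groups were A172 cells infected with a pLX317 lentivirus, and every library came from a stably infected line grown in serum. The GFP group had 3 libraries and the RBFOX1 group 3, prepared as rRNA-depleted stranded RNA-seq libraries. The replicates are stated to be biological. The sources used here do not say whether they came from separate infections or from cultures of 1 line, so p-values measure only the spread between these libraries, which may be technical. Each library held between 7433414 and 23249221 deposited counts on genes. Over the table, chi-square per degree of freedom, the spread of a pair against counting error, was 8.075 and 8.232 for GFP pairs with replicate 1. It was 1.598 for GFP replicates 2 and 3 and 1.877 to 2.8 for RBFOX1 pairs. The measure grows with depth, and GFP replicate 1 was the deepest library. Log2 values correlated at 0.994 to 0.996 within groups. The cause was not tested. RBFOX1 itself had 4, 0 and 1 counts in GFP replicates 1, 2 and 3 and 10276, 16467 and 21451 in RBFOX1 replicates 1, 2 and 3, in accordance with the labels. Of 8 glial and glioblastoma markers, 6 averaged 50 or more normalized counts, but the astrocyte markers GFAP and S100B, with 2.68 ± 0.731 and 0.351 ± 0.608 in GFP libraries (SD, n = 3), were near 0 in both groups. In bulk RNA, fewer expressing cells and less RNA per cell cannot be told apart.

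MMPs are zinc endopeptidases made as inactive precursors, which together cleave most proteins of the extracellular matrix. Some are secreted and the membrane-type MMPs are held at the cell surface, where MMP14 activates the gelatinase MMP2. ADAMs are membrane proteins, and those with an active site cut other membrane proteins from the cell surface, as ADAM17 does with TNF and EGF receptor ligands and ADAM10 with Notch. ADAMTS proteins are secreted, and several cleave the chondroitin sulphate proteoglycans that fill the extracellular space of the brain. TIMPs bind and block active metalloproteinases, TIMP3 also blocks several ADAMs and ADAMTS proteins, and RECK is a membrane-anchored inhibitor. In glioma, MMP2, MMP9 and MMP14 are known for their part in invasion through brain tissue.

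The most abundant proteases fell in RBFOX1 cells, while several that were scarce in GFP cells rose. MMP1 fell 7.18-fold, MMP14 2.58-fold, ADAM15 2.54-fold and ADAM9 2.13-fold, and MMP24 rose 17.8-fold, ADAMTS14 13.0-fold and ADAM11 11.9-fold. Of the inhibitors, TIMP1 and RECK rose, TIMP3 and TIMP4 fell, and TIMP2 did not pass the test. The test was the quasi-likelihood test of edgeR, with p-values adjusted over all 20536 genes by the Benjamini-Hochberg method. Every adjusted p below is of this kind unless an alternative is named. Alternatives with another filter or without a library were adjusted over the genes that each tested, and DESeq2 used its own test. By the main test 16 of the 49 genes were higher in RBFOX1 cells (adjusted p under 0.05), against 23.7% of all genes tested, and 19 were lower, against 22.9%. The members' shares were 32.65% and 38.78%. MMP12 and ADAMTS4, among the higher genes, had no count in GFP libraries and met the count minimum through the RBFOX1 libraries alone. With a change of at least 1 on the log2 scale, 10 were higher, against 8.23% of all genes, and 8 were lower, against 4.48%. In 39 of the 49 the values of the groups did not overlap, as in 53.4% of all genes tested.

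The median log2 fold change was 0.063 over the 49 genes and 0.0051 over all genes tested. Of the 32 genes that averaged 50 or more normalized counts, which are counts scaled to the mean effective library size, 17 were lower, 10 higher and 5 not called. The shares over all genes tested cover genes of every level, and none was computed for genes at this level. The sign of the median over all 49 was not stable, as it was -0.0929 without GFP replicate 1. The per-library medians of the 49 in RBFOX1 replicates 1, 2 and 3 were 0.0102, 0.0381 and 0.0415 against the GFP mean.

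**Figure D1:**
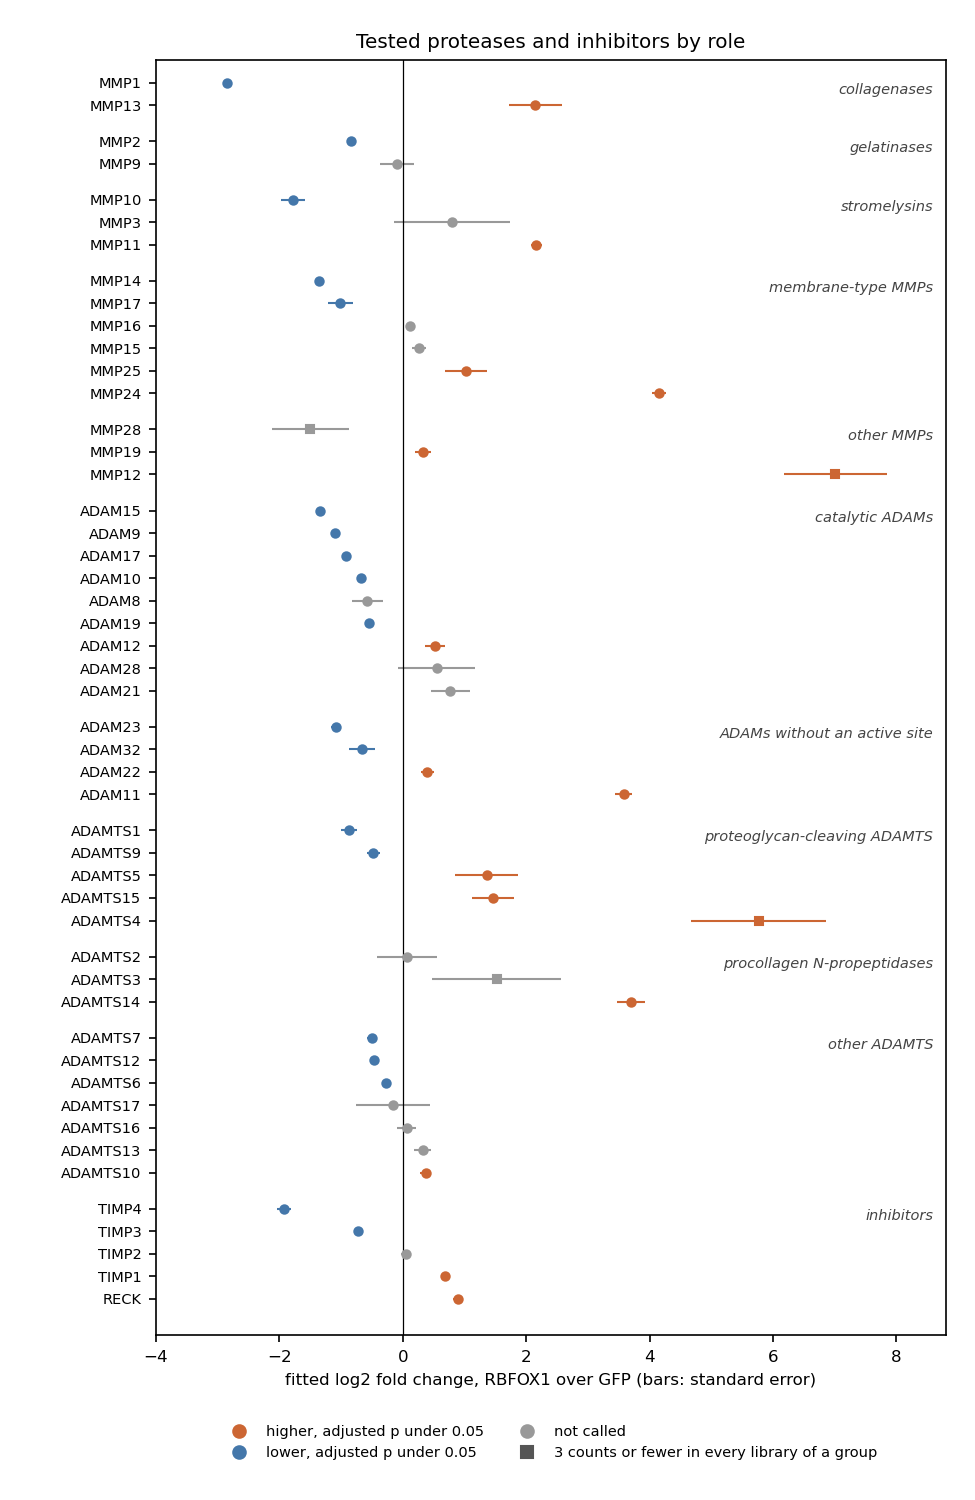
Fitted log2 fold change of each of the 49 tested genes (horizontal axis, RBFOX1 over GFP, bars: standard error), grouped by role and coloured by the test. Changes of both signs appear in most roles, from -2.84 for MMP1 to 4.15 for MMP24 among genes counted in both groups; the 4 squares are genes at or under 3 counts throughout a group, whose fitted values are not bounds.

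Of the collagenases, which cut fibrillar collagen, MMP1 (interstitial collagenase, chr11:102789401-102798160, minus strand of GRCh38) had normalized counts of 1655, 1651 and 1485 in GFP replicates 1, 2 and 3 and 216, 216 and 232 in RBFOX1 replicates 1, 2 and 3. All 3 RBFOX1 libraries lay far below the GFP libraries, and the fall was the largest among the 49 genes (log2 fold change -2.84, SE 0.0718, adjusted p = 5.09e-17). MMP13 (collagenase 3) was scarce, with 2.43, 5.84 and 9.48 in GFP and 27.2, 32.2 and 14.6 in RBFOX1 libraries. Its groups did not overlap and it rose 4.43-fold (log2 fold change 2.15, SE 0.431, adjusted p = 0.000336). MMP8, the neutrophil collagenase, had no count, which allows up to 3 counts per library.

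Of the gelatinases, which digest denatured collagen and type IV collagen, MMP2 had 3855, 4529.8 and 4382 normalized counts in GFP libraries and 2492, 2280.4 and 2326 in RBFOX1 libraries. It fell 1.80-fold with no overlap (log2 fold change -0.85, SE 0.0592, adjusted p = 3.03e-10), and 3.7% of its exon bases overlap an unnamed transcript on the same strand. MMP9 was much scarcer. It had 17.6, 15.2 and 21.1 in GFP and 14.5, 20.0 and 15.5 in RBFOX1 libraries, overlapping groups, and did not pass the test (log2 fold change -0.09, SE 0.278, adjusted p = 0.832). No change was detected, and one that is small against this SE could have been missed.

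The stromelysins, proteases of broad range, moved in different directions. MMP10 (stromelysin 2) had 66.8, 77.1 and 78.0 in GFP and 20.0, 23.3 and 20.1 in RBFOX1 libraries and fell 3.43-fold (log2 fold change -1.78, SE 0.189, adjusted p = 1.46e-07). MMP11 (stromelysin 3), unusual in that furin activates it inside the cell, had 192, 153 and 163 in GFP and 859.8, 753 and 725 in RBFOX1 libraries. Every RBFOX1 library lay above every GFP library, a rise of 4.48-fold (log2 fold change 2.16, SE 0.0912, adjusted p = 1.29e-13). MMP3 (stromelysin 1) had 1, 0 and 5 raw counts in GFP and 0, 5 and 3 in RBFOX1 libraries, too few to show a difference (adjusted p = 0.535).

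The 6 membrane-type MMPs split evenly, 2 higher, 2 lower and 2 not called. MMP14 (MT1-MMP, chr14:22836560-22849041, plus strand) was the most abundant protease of the families per length of merged exons in GFP cells. That rank rests on the annotated lengths, as ADAM9 had more normalized counts. MMP14 had 7659, 7243 and 7416 normalized counts in GFP and 3011, 2869 and 2797 in RBFOX1 libraries, a fall of 2.58-fold with no overlap (log2 fold change -1.37, SE 0.049, adjusted p = 1.2e-14). MMP17 (MT4-MMP), held by a lipid anchor, had 80.7, 60.7 and 75.8 in GFP and 36.3, 24.4 and 46.6 in RBFOX1 libraries and fell as well (log2 fold change -1.02, SE 0.202, adjusted p = 0.000309).

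MMP24 (MT5-MMP, chr20:35226690-35276998, plus strand), a membrane-type MMP known mainly from neurons, had 30.4, 35.0 and 26.3 in GFP libraries and 555, 542 and 535 in RBFOX1 libraries. The RBFOX1 values lay within a narrow range far above the GFP values, and the rise was the largest among the genes counted in both groups (log2 fold change 4.15, SE 0.109, adjusted p = 1.02e-16). On the opposite strand MMP24OS overlaps 18.4% of the MMP24 exon bases, and it rose less (log2 fold change 0.38, adjusted p = 0.00452). The library kit keeps the strand, and the deposited counts are marked as reverse-stranded, which was not tested here. Other genes on the opposite strand overlap 30.6% of the MMP25 exon bases, 18.4% of MMP9, 17.6% of MMP19 and 14.2% of TIMP4. No other such overlap of a tested gene exceeded 10.3%. MMP25 (MT6-MMP), of leukocytes, was scarce, with 7.28, 9.34 and 8.43 in GFP and 20.0, 18.9 and 12.8 in RBFOX1 libraries (log2 fold change 1.02, SE 0.34, adjusted p = 0.0186). Its call was lost with DESeq2 (adjusted p = 0.101), without GFP replicate 1 (adjusted p = 0.0727) and without RBFOX1 replicate 2 (adjusted p = 0.0782). MMP15 and MMP16 differed by 0.26 and 0.12 on the log2 scale and did not pass the test (adjusted p = 0.0539 and 0.197), and MMP15 passed with RLE size factors (adjusted p = 0.0490), with the filterByExpr filter on low counts (0.0362) and without GFP replicate 1 (0.0382) or RBFOX1 replicate 3 (0.0275).

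Of the remaining MMPs, MMP12 (macrophage elastase) had no count in any GFP library and 7, 15 and 19 counts in RBFOX1 replicates 1, 2 and 3. Set against 3 counts per GFP library, it was at least 5.50-fold higher in RBFOX1 cells (adjusted p = 1.44e-06). MMP12 met the minimum of 10 summed counts only through the RBFOX1 libraries. MMP28 (epilysin) had 10, 4 and 6 counts in GFP and 1, 3 and 1 in RBFOX1 libraries and was not called (adjusted p = 0.0587), except without RBFOX1 replicate 2 (adjusted p = 0.0410). MMP19 was 0.32 higher on the log2 scale (adjusted p = 0.044), but its call was lost under 9 of 14 alternatives, among them each fit without GFP replicate 2 (adjusted p = 0.127), GFP replicate 3 (0.114), RBFOX1 replicate 1 (0.0557) or RBFOX1 replicate 2 (0.213).

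Of these MMP genes, 9 lie in a row within 435.2 kb of chromosome 11 and did not move together. In order along the chromosome they are MMP7, MMP20, MMP27, MMP8, MMP10, MMP1, MMP3, MMP12 and MMP13. The first 4 had at most 2 counts each over the 6 libraries. The neighbours MMP10 and MMP1 fell, MMP3 was not called, and MMP12 and MMP13, at the far end, rose from 0 or near it. On chromosome 21 the neighbours ADAMTS1 and ADAMTS5 likewise changed in opposite directions.

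**Figure D2:**
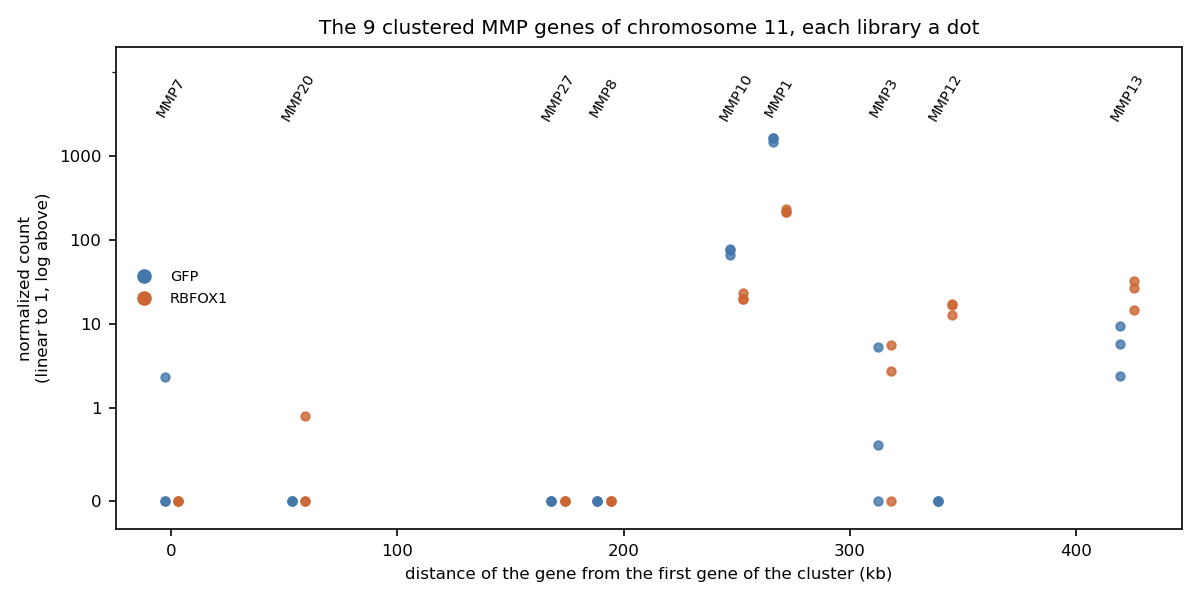
Normalized counts (vertical axis, linear to 1 and logarithmic above) of the 9 clustered MMP genes of chromosome 11 in each library (dots, GFP blue and RBFOX1 orange), by distance in kb from the first gene. MMP10 and MMP1 are lower in the RBFOX1 libraries, and MMP12 and MMP13 higher.

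The AP-1 factors, dimers of FOS and JUN proteins, are known regulators of several MMP genes. The promoters were therefore searched for TGANTCA, a loose spelling of their motif with any base at N, which reads alike on both strands. RefSeq promoters on GRCh38.p14, from 250 bases before to 50 after the start, were at hand for 27 of the 49 genes. MMP1, MMP2, ADAM9 and TIMP2 were among the 22 without one. The letters occurred in 2 of the 27, MMP10 and ADAMTS12, both lower in RBFOX1 cells, and in 7.71% of all 35116 promoters of the table. The 250 bases before the start of MMP10 are shown because MMP10 fell more than ADAMTS12. They are given 5′ to 3′ on the gene's strand with the matched letters in capitals, 67 bases before the start.
MMP10, chr11:102780629-102780878, minus strand: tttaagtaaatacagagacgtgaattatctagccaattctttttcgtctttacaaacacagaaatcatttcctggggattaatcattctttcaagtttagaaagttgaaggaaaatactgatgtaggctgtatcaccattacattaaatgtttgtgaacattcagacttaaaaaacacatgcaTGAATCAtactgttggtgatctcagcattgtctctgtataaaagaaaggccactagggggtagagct
A match is only a run of letters, and no match says nothing on binding.

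Among the ADAMs with an active site ADAM9, ADAM15 and ADAM19 and the best known sheddases, ADAM17 and ADAM10, fell. ADAM9 had 11694, 11796 and 11697 normalized counts in GFP and 5378, 5642 and 5479 in RBFOX1 libraries, the highest of the 49 genes in every GFP library, and fell 2.13-fold (log2 fold change -1.09, SE 0.046, adjusted p = 1.27e-13). ADAM15 (metargidin), an ADAM with an integrin-binding motif, had 4751, 4598 and 4526 in GFP and 1765, 1827 and 1862 in RBFOX1 libraries. Its groups lay wide apart (log2 fold change -1.35, SE 0.0485, adjusted p = 1.28e-14), and 4.65% of its exon bases overlap DCST1 on the same strand. ADAM19, which cleaves neuregulin, fell by 0.55 on the log2 scale (adjusted p = 1.17e-08).

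ADAM17 (TACE) had 3742, 3769.6 and 3807 in GFP and 1915, 2056 and 1976 in RBFOX1 libraries and fell 1.90-fold (log2 fold change -0.93, SE 0.0482, adjusted p = 3.16e-12). ADAM10 had 3358, 3832 and 3631 in GFP and 2240.1, 2381 and 2151 in RBFOX1 libraries and fell 1.60-fold (log2 fold change -0.67, SE 0.0563, adjusted p = 4.43e-09). For both, no RBFOX1 library reached a GFP library. ADAM12 was higher (log2 fold change 0.52, adjusted p = 0.0121), a call lost without RBFOX1 replicate 2 (adjusted p = 0.0557) and with DESeq2 (adjusted p = 0.0791). ADAM8, ADAM21 and ADAM28 were not called, with mean normalized counts under 30 in both groups. ADAM8 passed without RBFOX1 replicate 1 (adjusted p = 0.0450), and ADAM21 without RBFOX1 replicate 3 (adjusted p = 0.0407) or with filterByExpr (adjusted p = 0.0328).

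The 4 tested ADAMs without an active site, which act as adhesion proteins or receptors, all passed the test, 2 in each direction. ADAM11 (chr17:44758988-44781846, plus strand), known from the brain, had 34.6, 21.0 and 29.5 in GFP and 395, 342 and 339.7 in RBFOX1 libraries, a rise of 11.9-fold (log2 fold change 3.58, SE 0.136, adjusted p = 2.87e-14). ADAM22, a receptor of the secreted protein LGI1 at synapses, rose slightly (log2 fold change 0.40, adjusted p = 0.00381). ADAM23, also a receptor of LGI1, went the other way. It had 577, 691 and 622 in GFP and 317, 285 and 290.4 in RBFOX1 libraries and fell 2.12-fold (log2 fold change -1.08, SE 0.082, adjusted p = 1.04e-09). ADAM32 was lower (log2 fold change -0.65, adjusted p = 0.015), a call lost without GFP replicate 1 (adjusted p = 0.0703), without RBFOX1 replicate 1 (adjusted p = 0.0602) and with DESeq2 (adjusted p = 0.0894).

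Of the 5 tested ADAMTS genes whose proteins cleave proteoglycans, ADAMTS1 and ADAMTS9 were lower and the scarcer ADAMTS4, ADAMTS5 and ADAMTS15 higher. ADAMTS1 had 138, 160.0 and 144 in GFP and 68.9, 88.8 and 78.5 in RBFOX1 libraries (log2 fold change -0.87, SE 0.127, adjusted p = 9.16e-06), and ADAMTS9 fell by 0.48 on the log2 scale (adjusted p = 0.00124). ADAMTS4 (aggrecanase 1) had no count in any GFP library and 3, 8 and 6 counts in the RBFOX1 libraries. Against 3 counts per GFP library it was at least 2.33-fold higher (adjusted p = 0.000262). ADAMTS4 met the count minimum only through the RBFOX1 libraries, where it was higher. ADAMTS5 (aggrecanase 2) had 3.04, 2.34 and 5.27 in GFP and 14.5, 7.77 and 7.31 in RBFOX1 libraries (log2 fold change 1.36, SE 0.504, adjusted p = 0.0326). That call was lost without GFP replicate 1 (adjusted p = 0.105), GFP replicate 2 (0.0776) or RBFOX1 replicate 1 (0.114) and with DESeq2 (0.116). ADAMTS15 had 4.86, 11.7 and 8.43 in GFP and 20.0, 24.4 and 19.2 in RBFOX1 libraries and rose without overlap (log2 fold change 1.46, SE 0.344, adjusted p = 0.00148).

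The procollagen N-propeptidases, which trim the amino end of fibrillar procollagens, are ADAMTS2, ADAMTS3 and ADAMTS14. ADAMTS14 had 7.28, 11.7 and 6.32 in GFP and 107, 119.9 and 95.9 in RBFOX1 libraries, a rise of 13.0-fold (log2 fold change 3.70, SE 0.222, adjusted p = 2.87e-11). ADAMTS2 had 5.47 ± 1.08 in GFP and 5.42 ± 0.976 in RBFOX1 libraries (SD, n = 3) and was not called. ADAMTS3 had 1, 0 and 2 counts in GFP and 1, 0 and 6 in RBFOX1 libraries, so no fold is given. Of the 7 other ADAMTS genes, ADAMTS6, ADAMTS7 and ADAMTS12 fell by 0.27, 0.51 and 0.46 on the log2 scale (adjusted p = 0.000202, 2.87e-05 and 2.77e-06), ADAMTS10 rose by 0.37 (adjusted p = 0.00272), and ADAMTS13, ADAMTS16 and ADAMTS17 were not called. ADAMTS13 differed by 0.32 on the log2 scale (adjusted p = 0.0609) and passed with filterByExpr (adjusted p = 0.0436). ADAMTS7 has pseudogene copies that could share its reads, and its value is uncertain for that reason.

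The 5 inhibitors were all well counted. TIMP1 had 1886, 1731 and 1900.5 in GFP and 2899, 3037 and 2953 in RBFOX1 libraries, a rise of 1.61-fold with no overlap (log2 fold change 0.69, SE 0.0512, adjusted p = 8.25e-10). RECK had 358, 388 and 369 in GFP and 684, 675 and 696 in RBFOX1 libraries and rose 1.85-fold (log2 fold change 0.89, SE 0.0674, adjusted p = 1.05e-09). In both genes every RBFOX1 library lay above every GFP library.

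TIMP4, the TIMP with the narrowest tissue range, had 299, 260.4 and 273 in GFP and 79.8, 63.3 and 78.5 in RBFOX1 libraries and fell 3.80-fold (log2 fold change -1.93, SE 0.115, adjusted p = 2.75e-11). TIMP3, which is bound to the matrix, had 604, 578 and 611 in GFP and 365, 369 and 358 in RBFOX1 libraries and fell 1.65-fold (log2 fold change -0.72, SE 0.0686, adjusted p = 3.07e-08). TIMP2, the TIMP that also takes part in the activation of MMP2 by MMP14, had 4809, 6278 and 6516 in GFP and 6232, 6066 and 5842 in RBFOX1 libraries. GFP replicate 1 stood below the other 5 libraries, the groups overlapped, and the difference was not called (log2 fold change 0.05, SE 0.0781, adjusted p = 0.68). Without GFP replicate 1 its log2 fold change was -0.0769, likewise not called. CEP295NL overlaps 3.61% of the TIMP2 exon bases on the same strand. TIMP1, TIMP3 and TIMP4 lie within the spans of the synapsin genes SYN1, SYN3 and SYN2, on the opposite strand. Exons of SYN2 overlap 14.2% of the TIMP4 exon bases.

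**Figure D3:**
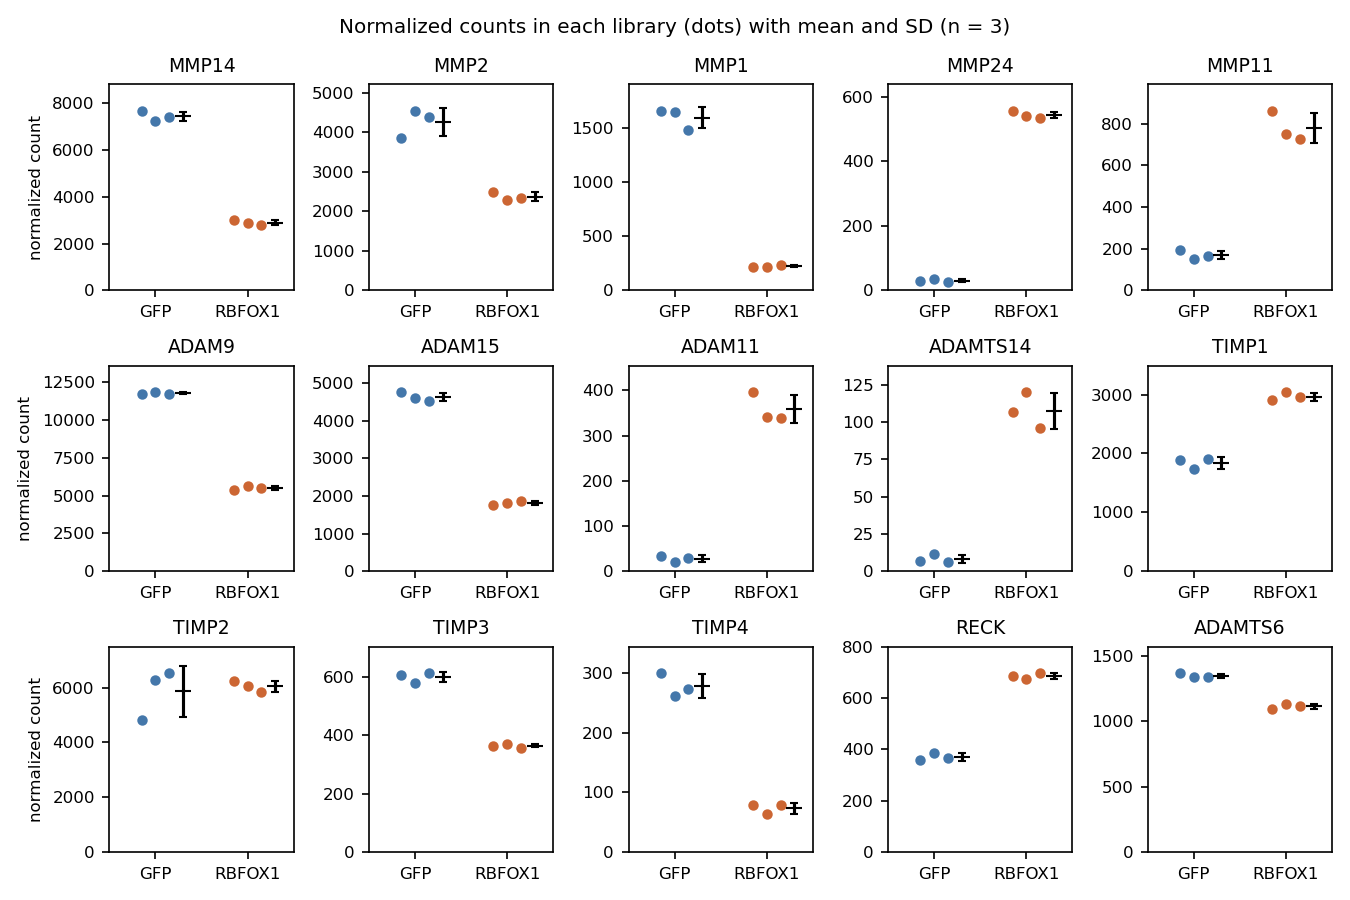
Normalized counts of 15 genes in each library (dots, vertical axes from 0, GFP blue and RBFOX1 orange) with the mean and SD of each group (black, n = 3). The groups do not overlap except for TIMP2, whose GFP replicate 1 is the lowest of the 6 libraries.

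Levels of different genes were compared as CPM (counts relative to the library's total) per kb of exon, the length being that of all annotated exons of the gene merged, which can exceed the transcript that A172 cells make. On this scale MMP14 stood first in GFP cells at 116, followed by TIMP1 at 91.6, TIMP2 at 68.1, MMP2 at 65.1, ADAM15 at 50.6, ADAM9 at 47.7 and MMP1 at 42.0. In RBFOX1 cells TIMP1 stood first at 148, followed by TIMP2 at 70.2, MMP14 at 45.1, MMP2 at 36.2, ADAM9 at 22.4 and ADAM15 at 19.9, and MMP1 was at 5.83. The order of TIMP2 and MMP2 in GFP cells lay within the spread over libraries. The merged length was 17704 bases for ADAM9, 15979 for ADAM10 and 15964 for ADAM17, against 4623 for MMP14. The order of ADAMs against MMPs and the ADAM sum below depend on these lengths.

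**Figure D4:**
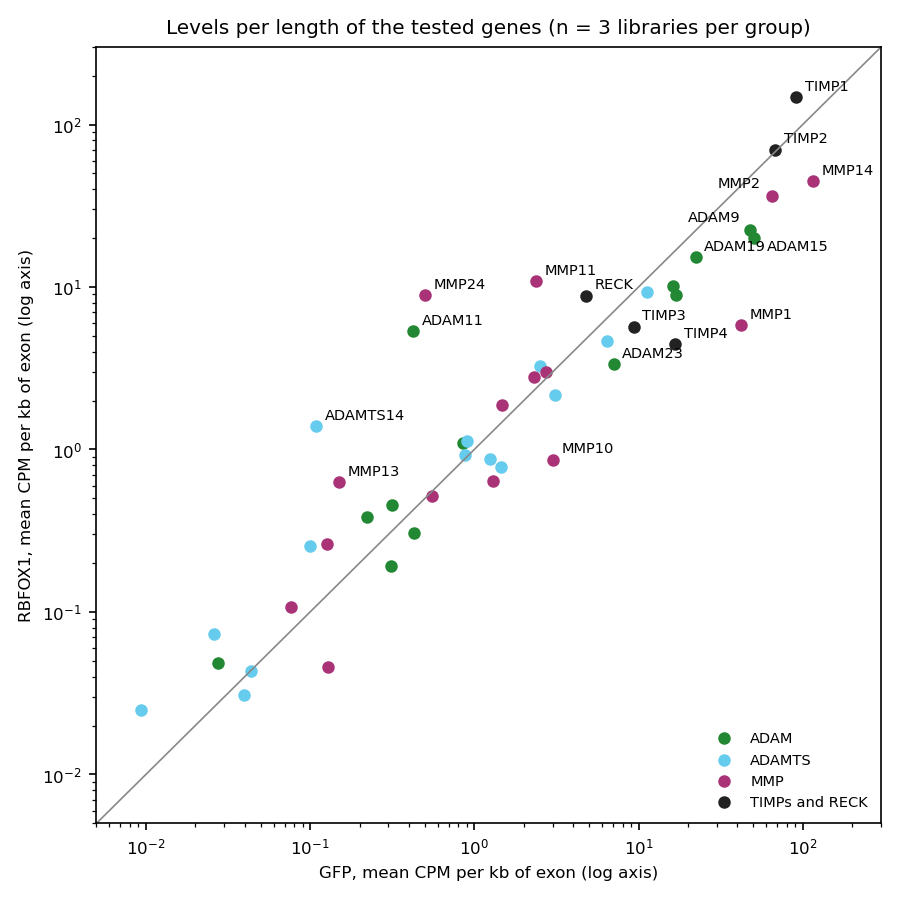
Mean level in GFP cells (horizontal axis) and RBFOX1 cells (vertical axis) as CPM per kb of exon, both on log axes, for 47 tested genes coloured by family, with the line of equal levels. MMP12 and ADAMTS4, at 0 in GFP cells, cannot be drawn. MMP14, MMP2, ADAM9, ADAM15 and MMP1 lie below the line, TIMP1 and RECK above it.

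Summed over all 22 MMP genes, of which 16 were tested, the level per length was 236.8, 240.0 and 236.8 in GFP and 123.1, 117.0 and 114.9 in RBFOX1 libraries. The sum over the 4 TIMPs was 177.2, 183.8 and 196.3 in GFP and 227.2, 231.2 and 225.2 in RBFOX1 libraries. The ratio of the TIMP sum to the MMP sum was 0.748, 0.766 and 0.829 in GFP and 1.845, 1.977 and 1.961 in RBFOX1 libraries. These sums describe transcripts, not active enzyme or inhibitor. The sum over ADAMs was 163.6 ± 0.994 in GFP and 87.9 ± 1.20 in RBFOX1 libraries, and over ADAMTS genes 28.2 ± 0.387 and 25.1 ± 0.321 (SD, n = 3).

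The MMP sum can be split by gene. MMP14 was 48.7 ± 1.69% of it in GFP and 38.1 ± 0.14% in RBFOX1 cells, and MMP1 17.7 ± 1.02% and 4.93 ± 0.354%. MMP2 was 27.4 ± 2.15% and 30.6 ± 0.661%. MMP24 was 0.212 ± 0.0286% and 7.57 ± 0.132%, and MMP11 0.998 ± 0.126% and 9.20 ± 0.499%. Of the TIMP sum TIMP1 was 49.4 ± 3.21% in GFP and 64.8 ± 1.05% in RBFOX1 cells. No test was made of these sums and shares.

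**Figure D5:**
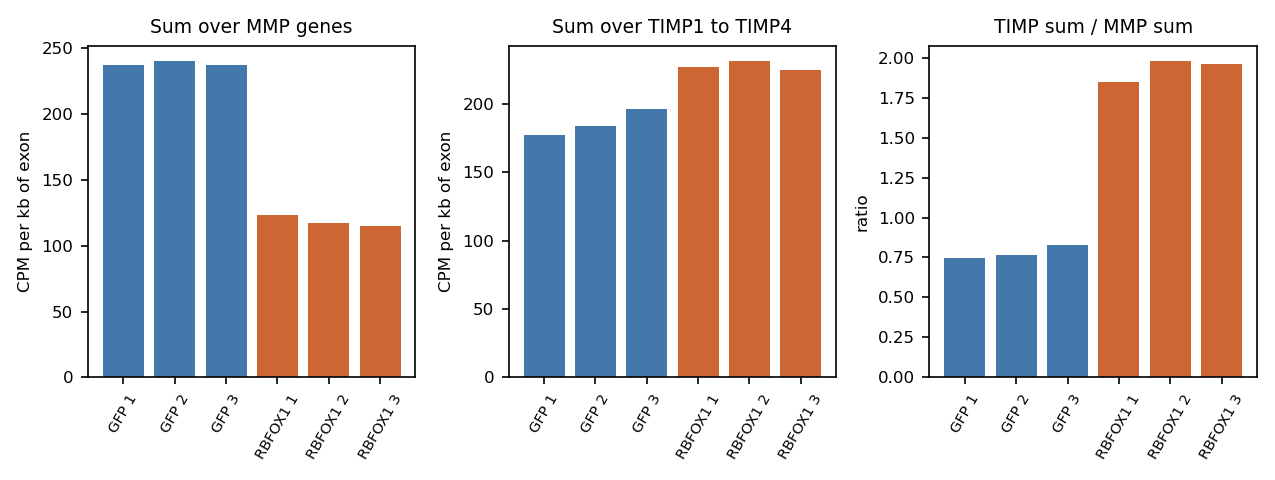
Level per length (CPM per kb of exon, bars from 0) in each library, summed over all 22 MMP genes and over TIMP1 to TIMP4, and the ratio of the sums. The MMP sum is 114.9 to 123.1 in the RBFOX1 libraries against 236.8 to 240.0 in the GFP libraries, and the ratio 1.845 to 1.977 against 0.748 to 0.829.

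RBFOX1 binds RNA at the letters UGCAUG, written TGCATG in DNA. These letters were searched on the coding strand of the canonical 3′ UTRs of GENCODE release 44. They occurred in 19 of the 49 genes (38.8%) and in 5131 of 14049 tested protein-coding genes (36.5%). The median 3′ UTR length was 1588 bases for the 49 genes and 1298 for all. By call, 5 of 16 higher genes, 8 of 19 lower genes and 6 of 14 not called held them. Windows of 30 bases around the letters are shown with TGCATG in capitals, the coordinates being those of the capitals. The genes shown are a selection, not set by a size of change, the first pair higher and the rest lower in RBFOX1 cells. Called genes that held the letters but are not shown were ADAM22, ADAMTS4 and ADAMTS5, higher, and ADAM10, ADAM19, ADAMTS6, ADAMTS9 and ADAMTS12, lower.
MMP24, chr20:35276104-35276109, plus strand: gctcactgagccTGCATGggccttgccccc
RECK, chr9:36124133-36124138, plus strand: tattaaaatgtaTGCATGttgtctaagaaa
MMP10, chr11:102770696-102770701, minus strand: gttaatttttccTGCATGttctgtgactga
MMP10, chr11:102770655-102770660, minus strand: cttgcagatatcTGCATGtgtcatgaagaa
ADAM23, chr2:206618095-206618100, plus strand: aagggtaaaaacTGCATGgcatatatacaa
ADAM23, chr2:206620706-206620711, plus strand: catctgggatagTGCATGagcccattgaat
ADAM23, chr2:206620764-206620769, plus strand: agtacacataagTGCATGttatgaaacatg
TIMP3, chr22:32859914-32859919, plus strand: aggagctgccacTGCATGtcccaaccagac
TIMP3, chr22:32859948-32859953, plus strand: tctgtctgtgtcTGCATGtaagagtgaggg
TIMP3, chr22:32862522-32862527, plus strand: agacctctgtctTGCATGtgacaattgaca
Genes with these letters changed in both directions, and MMP1, MMP14, MMP11, TIMP1 and TIMP4 changed with none in the 3′ UTR searched. Binding was not measured.

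Genes that act with the proteases were taken as 5 lists of 76 genes, of which 62 were tested, 21 being higher, against 23.7% of all genes tested, and 28 lower, against 22.9%. The lists were chosen with earlier results of these data known. PAPLN, TLL1 and CX3CL1, among the higher genes, would not have met the count minimum without the RBFOX1 libraries. Of 18 tested activators and partners, 4 were higher and 8 lower (median log2 fold change -0.16). PLAT, tissue plasminogen activator, and PLAUR, the urokinase receptor, fell 2.35-fold and 2.26-fold (adjusted p = 1.5e-13 and 6.6e-14), TSPAN14, a tetraspanin partner of ADAM10, fell 2.12-fold (adjusted p = 1.05e-11), and FURIN, which activates membrane-type MMPs and ADAMs, 1.62-fold (adjusted p = 1.16e-09). PLAU, urokinase itself, and BSG, the MMP inducer basigin, differed by -0.12 and 0.07 on the log2 scale and were not called (adjusted p = 0.0874 and 0.225), and PLAU passed with upper quartile factors (adjusted p = 0.0411).

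Of 11 tested genes for other inhibitors and clearance, 3 were higher and 6 lower. TFPI2, an inhibitor of plasmin, fell 5.75-fold (adjusted p = 1.29e-11), SFRP1, an inhibitor of ADAM10, fell 2.47-fold (adjusted p = 0.00702), and SPOCK1 (testican 1) rose 3.56-fold (adjusted p = 2.61e-11). LRP1, the receptor that clears MMPs and TIMPs from the cell surface, was higher with overlapping groups (log2 fold change 0.30, adjusted p = 0.0417), a call lost with upper quartile factors (adjusted p = 0.0541), with DESeq2 (0.291) and without GFP replicate 1 (0.120), RBFOX1 replicate 1 (0.167) or RBFOX1 replicate 2 (0.118). The call of SFRP1 was lost without RBFOX1 replicate 3 (adjusted p = 0.0671). Of 9 tested ADAMTS-like, ADAM-like and astacin genes, 6 were higher and 1 lower. ADAMTSL4 rose by 3.17 on the log2 scale and ADAMTSL1 fell 5.18-fold (adjusted p = 1.42e-09 and 1.07e-11). PAPLN and TLL1 never exceeded 3 counts in a GFP library and were at least 10.1-fold and 11.6-fold higher in RBFOX1 cells (adjusted p = 1.34e-07 and 1.33e-07). Both met the count minimum only through the RBFOX1 libraries.

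The substrates changed in both directions too. Of 8 tested matrix and proteoglycan substrates, 2 were higher and 4 lower, with TNC, tenascin C, falling 12.7-fold and BCAN, brevican, scarce and 2.01-fold higher with overlapping groups (adjusted p = 1.1e-16 and 0.0329). The call of BCAN was lost with DESeq2 (adjusted p = 0.179), with the replicate number as a block (0.0873), and without GFP replicate 1 (0.146), GFP replicate 3 (0.0629) or RBFOX1 replicate 3 (0.285). Of 16 tested ligands and receptors that ADAMs shed, 6 were higher and 9 lower. NRG1 and MERTK rose 4.29-fold and 2.13-fold (adjusted p = 1.77e-12 and 0.000221). TGFA, SDC4 and EGF fell 5.32-fold, 4.37-fold and 2.17-fold (adjusted p = 2.4e-12, 3.48e-16 and 8.1e-05). CX3CL1, which never exceeded 3 counts in a GFP library, was at least 5.66-fold higher (adjusted p = 1.19e-05). It met the count minimum only through the RBFOX1 libraries.

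Some markers of other cell types moved with some of these genes. The summed normalized count of 4 leukocyte markers was 12.9 to 25.5 in GFP and 52.6 to 68.5 in RBFOX1 libraries, nearly all from PTPRC, while AIF1 and CD3E had no count. The sum of 4 endothelial markers was 17.9 to 20.6 and 99.5 to 121.5, and of 4 neuronal markers 181.2 to 188.0 and 379.1 to 494.1, with 2 of the neuronal markers at a mean of at least 50 and SNAP25 at 2 counts or fewer in every library. MMP12 and MMP25, known from leukocytes, and MMP24 and ADAM11, known from neurons, rose in the same libraries. Other members did not, as MMP8, the neutrophil collagenase, had no count, and ADAM23, like ADAM22 a receptor of LGI1, fell. Of the markers, PTPRC, PECAM1, CDH5, VWF, SYP and MAP2 were higher. KDR, CD68 and TUBB3 were not called (log2 fold change -0.57, -0.12 and 0.36, adjusted p = 0.39, 0.927 and 0.0635). The glial and glioblastoma sum was 78730 to 80040 in GFP and 52760 to 53330 in RBFOX1 libraries, most of it VIM and CD44, which fell 1.57-fold and 1.87-fold (adjusted p = 6.57e-10 and 6.78e-09). SOX2 and NES, of the same list, rose 5.79-fold and 1.52-fold (adjusted p = 1.48e-10 and 6.1e-09). The part of other cell types in the results was not tested.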

How the data were processed

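Paired-end reads of rRNA-depleted stranded libraries were aligned by the authors with HISAT2 (GRCh38) and assigned to Ensembl genes with HTSeq-count, and the authors deposited the unnormalized count of each gene in each of the 6 libraries. The deposited table of the authors' own DESeq2 comparison (fold changes and p-values) was not used. Between 52 and 61.9% of read pairs were counted on a gene; pairs on no gene (6.61 to 8.74%), on several genes (6.89 to 9.35%), of low mapping quality (16.8 to 27.0%) or not aligned (4.64 to 7.46%) stayed out.

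Symbols, 3′ UTRs and exon lengths (all exons of a gene merged) came from GENCODE release 44, a later annotation than that of the counts, which matched 98.1% of gene identifiers. Counts were scaled by TMM and tested with edgeR 4.0.16 (R 4.3.3), GFP against RBFOX1, two-sided, with no covariate, for genes with at least 10 summed counts. An adjusted p under 0.05 was called. Where no library of a group exceeded 3 counts, folds are bounds against 3 counts per library, covering counting error only. In normalized counts, 3 counts are 1.82 in the deepest library and 5.44 in the shallowest. On simulated data for this comparison (20112 genes, 200 changed 2-fold), 200 were recovered, with 17 false among 217 calls. In the real data 23.7% of genes were called higher and 22.9% lower, with changes of many sizes. The simulation therefore does not measure scaling or the error rate in that setting.

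Members, lists and markers were chosen with earlier results of these data known. By rule, values are given per library for members called with a log2 fold change of 1 or more in either direction, for those at or under 3 counts throughout 1 group, and for TIMP1 to TIMP4, RECK, MMP1, MMP2, MMP3, MMP9, MMP14, ADAM10, ADAM17, ADAMTS1, ADAMTS4 and ADAMTS5. Of the regulator lists the text names genes called with that size of change, apart from a gene that is not reported here, and PLAU, FURIN, BSG and LRP1. Other scalings and filters, DESeq2 1.42.0, limma-voom (limma 3.58.1), a replicate block, a 1.5-fold minimum, a wider and a narrower membership, and the omission of each library were alternatives.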

Additional observations from a re-analysis of the deposited data

How the results depend on the processing

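Of the 35 called genes, none changed sign under any alternative run, 19 kept the call under every one, 1 (ADAMTS4) kept it but could not be tested with filterByExpr or without RBFOX1 replicate 2, 10 lost it only where the test was made against a 1.5-fold minimum, and 5 (MMP19, MMP25, ADAM12, ADAM32 and ADAMTS5) lost it elsewhere too. Against a 1.5-fold minimum 9 members were higher and 11 lower, 1711 and 1062 genes over the whole table, and 8 and 14 of the regulator lists, since that test asks for more than a difference from 0. Of the members that averaged 50 or more normalized counts 10 were higher, as fewer genes were counted. DESeq2 called 12 higher and 18 lower. Leaving out each library in turn gave 12 to 18 higher and 18 to 20 lower members, the lowest count of higher members being without RBFOX1 replicate 2. Adding symbols with letters after the digits added 1 higher gene, MMP24OS.

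The replicate numbers did not pair the libraries, as the deviations of same-numbered libraries from their group means correlated at -0.062, 0.014 and -0.019. With the replicate block 16 members were higher and 19 lower, no call of a member changed, PCSK6 and BCAN of the regulator lists lost theirs (adjusted p = 0.0697 and 0.0873), and the log2 fold change of ADAMTS2 was -0.0151. The median over the members ran from -0.0929 to 0.132 when a library was left out, was 0.0388 with upper quartile factors, 0.111 with no filter and -0.0751 with filterByExpr. Signs turned for genes that were not called: when a library was left out the log2 fold change ran from -0.0339 to 0.168 for ADAMTS16, from -0.481 to 0.276 for ADAMTS17, from -0.142 to 0.209 for ADAMTS2, from -0.238 to 0.0110 for MMP9 and from -0.0769 to 0.132 for TIMP2. ADAMTS17 was also 0.0512 without RBFOX1 replicate 1, and ADAMTS2 -0.112 without RBFOX1 replicate 3. The causes were not tested. Depth limits the genes with a few counts per library, such as MMP3, ADAMTS2, ADAMTS3 and ADAMTS17.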
